A study of Mus musculus with 6 samples.

Results

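The lysosomal genes described here are 47 mouse genes listed by symbol, comprising 17 hydrolases of glycans and glycolipids, 6 genes of lipid handling, 12 proteases and their partners, 6 membrane proteins, 4 proton pump genes and 2 transcription factors of the TFE family. All 47 symbols were found among the 55401 genes of the count table. The 6 RNA samples came from mouse T cells, of which 3 had received macrophage supernatant made after exposure to NFL, the light chain of the neurofilaments of axons, and 3 had received supernatant from macrophages left untreated (control). The CD8a-selected T cells and the CD11b-selected cells from which the macrophages were grown (50 ng/mL M-CSF, 7 days) both came from spleen, and the T cells grew in medium (2% serum) of which 50% was supernatant. The macrophages received 5 µg/mL of NFL for 24 h, which the series design describes as prepared from a freeze-thawed lysate of sciatic nerve, while the methods of the study name a purchased NFL protein for its animal experiments. Whether other nerve components were in the preparation is not known. The labels of these samples state no strain, age or genotype, and no label says that the samples of a group came from separate animals or cultures, so that the p-values measure the spread between these samples, which may be technical.

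Lysosomes are acidic compartments in which hydrolases break down proteins, glycans and lipids that arrive from endocytosis and autophagy. A proton pump acidifies the lumen, most enzymes are delivered by mannose 6-phosphate receptors, and glycosylated membrane proteins line the inner face. TFEB and TFE3, factors of the basic helix-loop-helix family, bind E-box letters of the CACGTG type in many of these genes. Acid β-galactosidase, the product of Glb1, is the enzyme read by β-galactosidase stains for senescence, which the study used in flow cytometry on CD8+ T cells. By this stain the study reported more senescence in CD8+ T cells given supernatant of NFL-treated macrophages. Its methods give a lower NFL dose for co-cultures of macrophages and T cells than the 5 µg/mL of the samples here. The stain reads enzyme activity, whereas the values given here are mRNA levels.

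The libraries held 15843045 to 24639756 counts, and a floor of 3 counts corresponded to 0.122 to 0.189 CPM, the read count scaled to library size. Over the 6 libraries, Thy1 reached a median of 1641 CPM, Cd3e 53.5 CPM, Cd4 25.9 CPM, Cd8a 3.90 CPM and Cd8b1 1.27 CPM, whereas Cd2 and Cd5 had 0 counts in each of the 6 libraries. Since Cd2 and Cd5 are genes that T cells commonly express, a value of exactly 0 in this table, for any gene, may not mean that its mRNA was absent. The genes of the CD8 receptor, on which the cells had been selected, were thus detected at low levels only. Further T-cell markers were low as well, with medians of 4.41 CPM for Lck and 4.14 CPM for Cd3d. Trac stayed at or under 2.49 CPM. Whether low values in this table, for any gene, understate its mRNA was not tested. Cd3e, a subunit of the T-cell receptor complex, was lower with NFL supernatant, at 61.0 ± 4.24 CPM and 50.2 ± 0.960 CPM (SD, n = 3 each, log2 fold change -0.28, edgeR adjusted p = 5.7e-04), and its part in the results for lysosomal genes was not tested. The T-cell markers did not all fall, and Trbc1, Cd3d and Cd4 had higher means with NFL supernatant. The summed level of 13 T-cell markers, most of it Thy1, was 2138 to 2228 CPM in control and 2081 to 2176 CPM in NFL libraries. These ranges overlapped. Of 12 macrophage markers, 11 stayed under 1 CPM in each library and 6, among them C1qa, Cd14 and Itgam, had 0 counts throughout. The exception was Cd68, itself a lysosomal membrane protein. The summed level of 6 B-cell markers was 12.1 to 13.3 CPM in control and 11.6 to 14.0 CPM in NFL libraries, and that of 4 neutrophil markers stayed at or under 1.05 CPM. Read counts were scaled with TMM factors and tested with edgeR's quasi-likelihood test across 14082 genes, and every adjusted p-value given here is adjusted over all of them by the Benjamini-Hochberg method. A gene is called past the threshold when this value is under 0.05.

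With NFL supernatant, genes of the list such as Sgsh, Arsb, Smpd1, Ctsw and Grn had lower mRNA. The proton pump genes Atp6v1a and Atp6v1h had higher mRNA, although Atp6v1h lost its call in 5 of 15 alternative settings of the analysis. The membrane protein genes Lamp1 and Lamp2 did not pass the threshold. Of the 45 lysosomal genes with enough reads to test, 38 had a lower and 7 a higher fitted level with NFL supernatant. Over all genes tested, 7097 of 14082 had a lower fitted level. The median log2 fold change was -0.09 for the lysosomal genes and -0.00099 over all genes tested. Past the threshold were 17 lower and 2 higher genes of the list, compared with 7.00% of all genes tested in either direction, 3.53% lower and 3.47% higher. The share of higher genes in the list was thus near that over all genes tested. The list was drawn up with earlier results of this same comparison known, among them the falls of Atp13a2 and Sgsh, so these counts, fold changes and adjusted p-values describe the genes and are no independent evidence of a direction. Without Atp13a2, Sgsh and Glb1, 14 of the other 42 genes were lower and 2 higher past the threshold. In bulk RNA, fewer cells of a type and less RNA per cell cannot be told apart.

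Lysosomal genes were expressed above the typical gene, and their fold changes had smaller errors. Their median control level was 82.1 CPM against 24.2 CPM over all genes tested, and the median standard error (SE) of the log2 fold change was 0.0458 against 0.0806. Of the 23 lysosomal genes at or above that median level, 11 were lower and 2 higher past the threshold, where 16.5% of all genes at that level were past it and 7.35% were past it and lower. The 3 NFL libraries lay below the 3 control libraries for 18 of the 45 lysosomal genes, where this held for 11.2% of all genes tested. The differences were small. Among the 17 lower genes the median log2 fold change was -0.19, and apart from Atp13a2, Sgsh, Ctsw, Arsb and Smpd1 none fell by more than 0.29 on the log2 scale. Scaling by library size, without TMM factors, the count stayed at 17 lower and 2 higher, whereas over all genes the calls went from 489 higher and 497 lower to 372 higher and 600 lower.

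**Figure D1:**
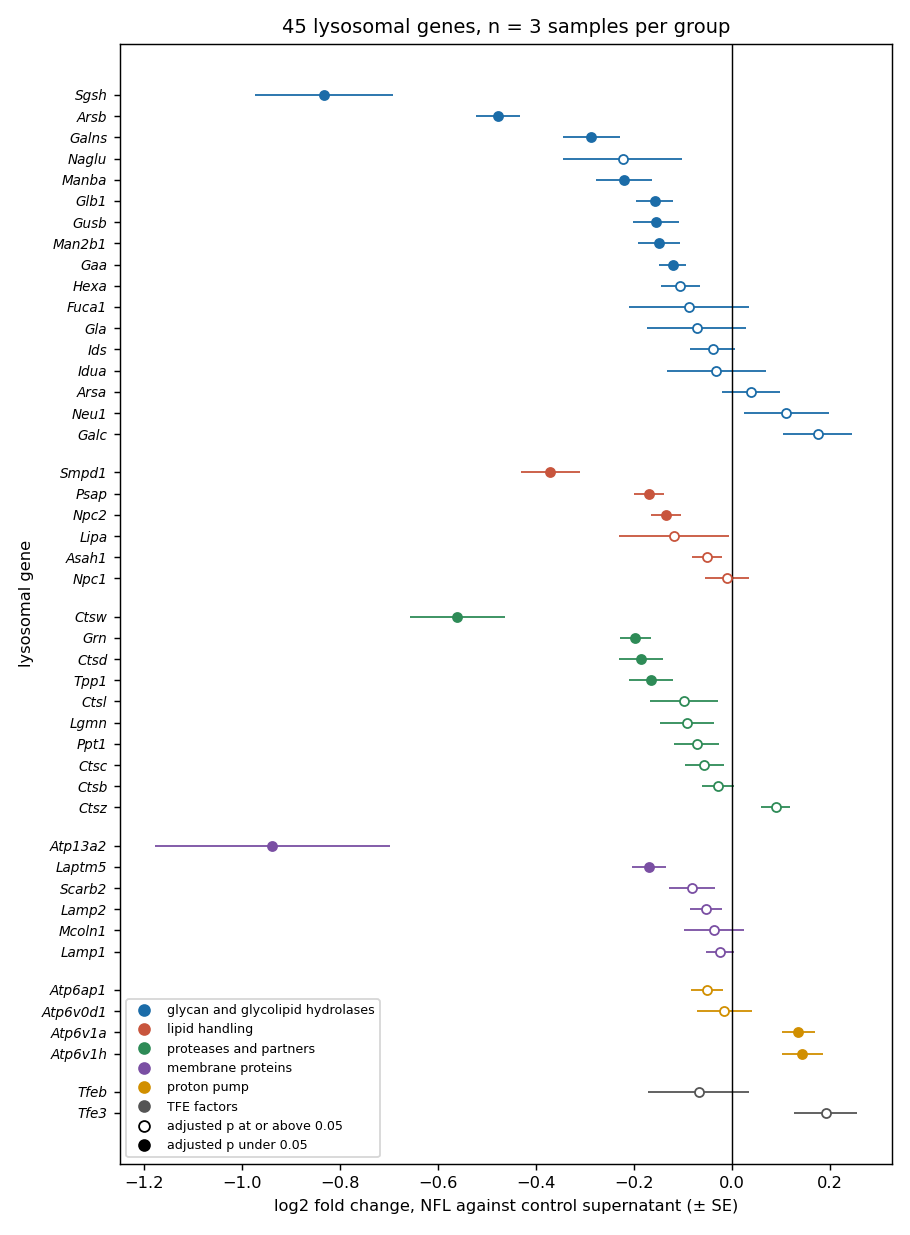
Log2 fold change with standard error of the 45 tested lysosomal genes, NFL against control supernatant (3 samples each), grouped by role, with filled points for an adjusted p-value under 0.05. Of the filled points, 17 lie left of 0, led by Atp13a2 (-0.94) and Sgsh (-0.83), and 2 lie right of it, both of them proton pump genes.

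The sequences at the starts of these genes are shown because the TFE factors bind letters of this type. RefSeq promoter windows (GRCm38.p6, 250 bases before to 50 after the gene start) were found for 41 of the 47 genes. Asah1, Atp6v1h, Ctsb, Ctsw, Galns and Npc1 had none. The letters CACGTG, which read the same on both strands, were in the windows of 14 of the 41 genes (34.1%), against 2349 of all 32851 windows (7.15%), 8.09% of all genes with a window and 11.4% of the 9623 tested genes with one. The longer TCACGTG, searched on both strands and holding the shorter motif inside it, was in 13 of 41 genes (31.7%), against 3.77% of all windows, 4.29% of genes with a window and 6.81% of tested genes with one. The full palindrome of the CLEAR motif, which holds both, was in 0 of the 41, against 0.326% of all windows and 0.811% of tested genes with one. The following stretches of 30 bases run 5′ to 3′ on the gene's strand, with CACGTG and the adjoining letters that match the CLEAR palindrome in capitals.
Sgsh: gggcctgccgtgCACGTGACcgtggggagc
Glb1: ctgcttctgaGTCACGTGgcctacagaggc
Gaa: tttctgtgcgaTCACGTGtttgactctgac
Ctsd: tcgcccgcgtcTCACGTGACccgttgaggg
Naglu: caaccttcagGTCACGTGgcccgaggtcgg
Lamp1: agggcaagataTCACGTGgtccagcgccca
Atp6v1a: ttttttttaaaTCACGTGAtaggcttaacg

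These stretches lie at chr11:119355522-119355551 on the minus strand for Sgsh, at chr9:114401018-114401047 on the plus strand for Glb1 and at chr11:119267811-119267840 on the plus strand for Gaa. They lie at chr7:142387908-142387937 (minus) for Ctsd, chr11:101070009-101070038 (plus) for Naglu, chr8:13159088-13159117 (plus) for Lamp1 and chr16:44139373-44139402 (minus) for Atp6v1a. Counted from the RefSeq start of the window, which for all of these genes but Lamp1 differs from the GENCODE start, the C of the core stood 29 bases before the start in Sgsh, 48 in Glb1, 140 in Gaa, 98 in Ctsd, 73 in Naglu, 61 in Lamp1 and 131 in Atp6v1a. By the GENCODE starts, the cores shown for Ctsd, Naglu and Atp6v1a lie inside the gene, and that of Sgsh lies across its start. Lamp1 held 4 copies of the core. The genes shown include 4 that were lower past the threshold (Sgsh, Glb1, Gaa and Ctsd), 1 that was higher (Atp6v1a) and 2 that did not pass it. Among tested lysosomal genes the median log2 fold change was -0.09 for the 13 with CACGTG and -0.10 for the 26 without. Past the threshold, 4 and 11 of them were lower and 1 and 0 higher. Over all tested genes with a window, 4.2% of those with CACGTG and 4.05% of those without were lower past the threshold. The shares that were higher were 5.57% and 3.68%. Arsb, Smpd1, Grn and Psap, which were lower, had no CACGTG in these windows.

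Among the 17 hydrolases of glycans and glycolipids, all of which were tested, 8 were lower past the threshold, none was higher and 9 did not pass it, with a median log2 fold change of -0.12. The steepest differences were in enzymes that degrade glycosaminoglycans. Sgsh, which encodes the sulfamidase that removes sulfate from heparan sulfate, had 9.75, 10.3 and 8.31 CPM in control samples 1 to 3 and 5.09, 4.88 and 5.83 CPM in NFL samples 1 to 3. Every NFL sample was below every control sample, and the means were 9.45 ± 1.02 CPM and 5.27 ± 0.499 CPM (SD, n = 3 each), which is a log2 fold change of -0.83 (SE 0.142, adjusted p = 3.8e-05 by edgeR). Sgsh lies on chromosome 11 of GRCm38 from 119343425 to 119355536, and 21.6% of its exon bases are shared with Card14 on the other strand, which reached a mean of 0.220 CPM with control supernatant.

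Arsb encodes arylsulfatase B, which acts on dermatan and chondroitin sulfate, and is found on chromosome 13 at 93771630 to 93943016. It had 109, 123 and 109 CPM in the control samples and 81.8, 81.7 and 80.2 CPM in the NFL samples. The NFL samples sat within a narrow band well under the lowest control. The log2 fold change was -0.48 (SE 0.0452, adjusted p = 1.4e-11 by edgeR), the smallest adjusted p-value among the 45 tested genes of the list, and with any single library left out it stayed between -0.51 and -0.42. Of the exon bases of Arsb, 32.3% are shared with Gm26527 on the other strand, which was not analysed here.

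Galns, the sulfatase of keratan sulfate and chondroitin 6-sulfate, had 52.7, 56.4 and 50.5 CPM with control supernatant and 44.0, 43.7 and 42.7 CPM with NFL supernatant (log2 fold change -0.29, SE 0.0586, adjusted p = 6.7e-04 by edgeR). The groups did not overlap. Other enzymes of the same degradation routes differed less. Gusb, which encodes β-glucuronidase, had 86.0, 86.6 and 79.3 CPM against 75.2, 74.7 and 76.0 CPM (log2 fold change -0.15, edgeR adjusted p = 0.033). The groups were apart for Gusb as well, but its call was lost with any library but control replicate 3 left out, under the DESeq2 test and with offsets for GC content and length (highest adjusted p = 0.175, without control replicate 1). Naglu (-0.22), Idua (-0.03) and Ids (-0.04), which also act on heparan or dermatan sulfate, did not pass the threshold, and each had overlapping groups.

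Glb1, on chromosome 9 from 114401076 to 114474898, had 154, 141 and 149 CPM in the control samples and 135, 132 and 132 CPM in the NFL samples. Its mRNA was thus lower in each NFL sample than in any control sample, at 148 ± 6.43 CPM against 133 ± 1.67 CPM (SD, n = 3 each), a difference of 10.3% (log2 fold change -0.16, SE 0.0379, adjusted p = 0.0049 by edgeR). The exact two-sided permutation test of its means gave p = 0.1, the smallest that 3 against 3 samples allow. Without control replicate 1 the edgeR adjusted p of Glb1 was 0.0829. Tmppe shares 5.49% of the exon bases of Glb1 on the same strand and had 28.1 CPM against 31.3 CPM. The partners of β-galactosidase in the lysosome are neuraminidase and protective protein. Neu1, which encodes the former, had 18.9 ± 0.771 CPM and 20.5 ± 1.01 CPM (SD, n = 3 each, edgeR adjusted p = 0.54), and Ctsa, which encodes the latter, had only 1 to 9 counts per library and was not tested.

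Manba, Man2b1 and Gaa, of glycoprotein and glycogen breakdown, were also lower past the threshold. Manba, the β-mannosidase gene, had 54.6, 58.6 and 53.1 CPM with control supernatant and 48.3, 46.3 and 47.6 CPM with NFL supernatant (log2 fold change -0.22, edgeR adjusted p = 0.0089, or 0.0673 without NFL replicate 2). Man2b1, which encodes the lysosomal α-mannosidase, had 111, 119 and 111 CPM against 98.3, 105 and 104 CPM (log2 fold change -0.15, edgeR adjusted p = 0.019). No NFL sample of either gene reached a control sample, although Man2b1 lost its call without control replicate 2, NFL replicate 1 or NFL replicate 3 and with offsets for GC content and length (highest adjusted p = 0.143, without NFL replicate 1). Gaa, the acid α-glucosidase of glycogen breakdown and the one with the highest level per kb of exon among the 17 hydrolases of glycans and glycolipids (121 CPM per kb), had 570.3, 578 and 588 CPM and 541, 525 and 531 CPM. The log2 fold change of Gaa was only -0.12, but its standard error was 0.028 and the adjusted p from edgeR was 0.0033, or 0.0502 without NFL replicate 2. Fuca1, the fucosidase gene, did not pass the threshold (-0.09).

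The glycolipid enzyme genes Hexa, Gla, Arsa and Galc did not pass the threshold. Hexa (log2 fold change -0.10), Gla (-0.07) and Arsa (0.04), which degrade GM2 ganglioside, globotriaosylceramide and sulfatide, had overlapping groups. Galc, the galactocerebrosidase gene, had 32.1, 28.1 and 30.4 CPM with control supernatant and 33.5, 35.6 and 33.6 CPM with NFL supernatant. All 3 NFL samples of Galc were above the controls, with an edgeR adjusted p of 0.13.

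**Figure D2:**
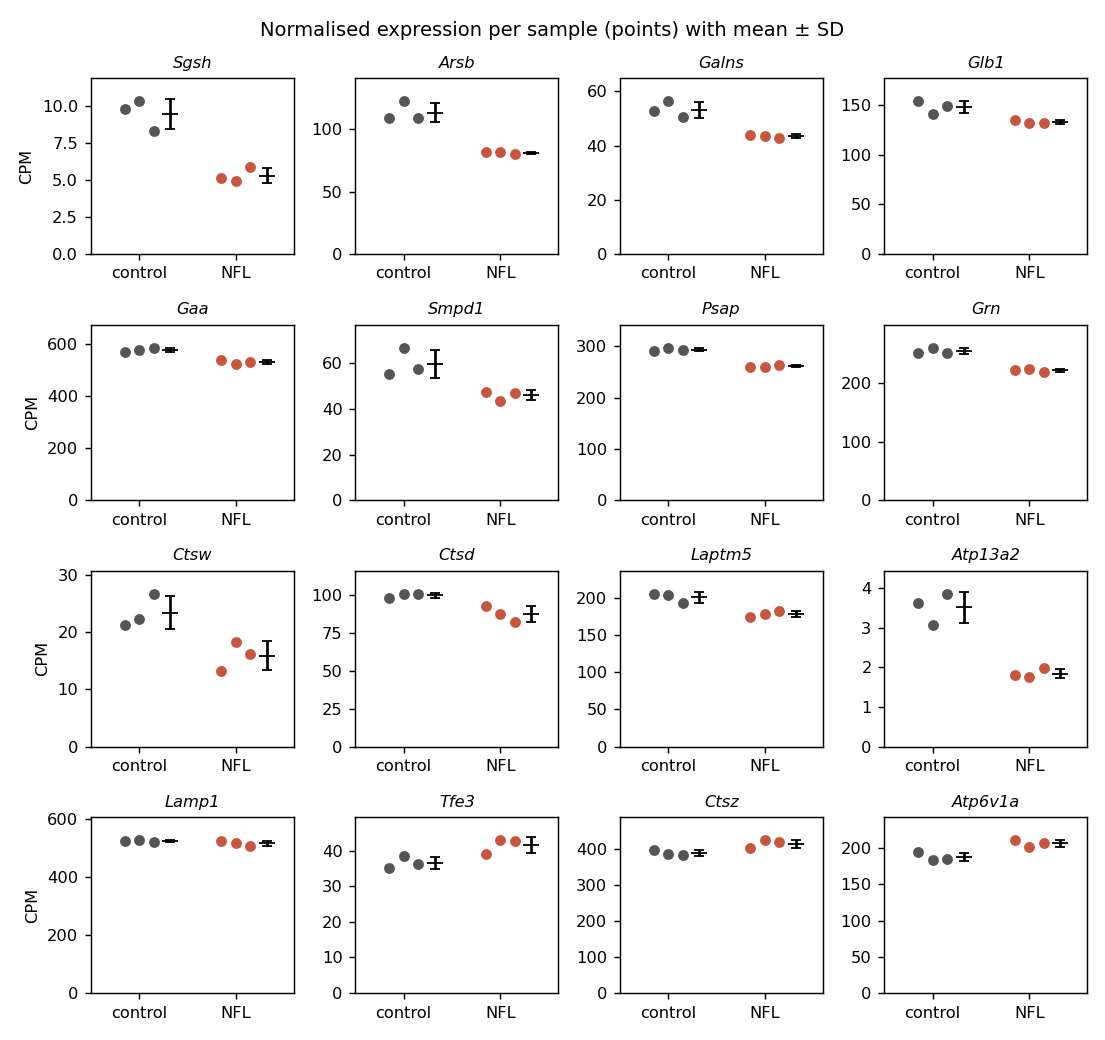
CPM (TMM-scaled) of 16 lysosomal genes in each of the 3 control and 3 NFL samples (points), with mean ± SD beside them and each axis starting at 0. The NFL points of the first 12 genes, Sgsh to Atp13a2, lie under their control points, those of Lamp1 overlap, and those of Tfe3, Ctsz and Atp6v1a lie above.

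The 6 lipid-handling genes all had lower fitted levels, 3 of them past the threshold. Over all genes tested, 7097 of 14082 had a lower fitted level and 3.53% were lower past the threshold. Smpd1 encodes acid sphingomyelinase, which cuts sphingomyelin to ceramide, and lies on chromosome 7 from 105554360 to 105558389. It had 55.2, 66.8 and 57.4 CPM in the control samples and 47.6, 43.4 and 46.9 CPM in the NFL samples. The groups did not overlap, although the control samples were scattered, with a log2 fold change of -0.37 (SE 0.0611, adjusted p = 2.2e-05 by edgeR). Psap, the precursor of the saposins that present lipids to these enzymes, had 291, 297 and 292 CPM against 259.98, 259.91 and 263 CPM (log2 fold change -0.17, edgeR adjusted p = 1.2e-04). Npc2, whose product hands cholesterol to NPC1, had 293, 299 and 298 CPM against 265, 272 and 273 CPM (log2 fold change -0.13, edgeR adjusted p = 0.0027). Both abundant genes had tight, separate groups. Its membrane partner gene Npc1, in contrast, had 81.1 ± 0.780 CPM and 80.6 ± 0.836 CPM (SD, n = 3 each), which is a log2 fold change of -0.01 with a standard error of 0.0454. Asah1, the acid ceramidase gene, and Lipa, the acid lipase gene, did not pass the threshold (-0.05 and -0.12).

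Of the 12 proteases and partners, 10 could be tested, and 4 were lower past the threshold, as were 3.53% of all genes tested. Ctsw encodes cathepsin W, a cysteine protease known from cytotoxic lymphocytes, and lies on chromosome 19 from 5465043 to 5468507. It had 21.3, 22.3 and 26.7 CPM with control supernatant and 13.2, 18.3 and 16.3 CPM with NFL supernatant. The samples of both groups were scattered, yet they did not overlap, and the log2 fold change was -0.56 (SE 0.0974, adjusted p = 5.6e-05 by edgeR). Klrb1c, a natural killer cell marker, fell as well, from 31.7 ± 1.75 CPM to 22.4 ± 0.322 CPM (SD, n = 3 each, edgeR adjusted p = 2.4e-06), whereas Ncr1 had 0 counts in each library and Klre1 at most 0.225 CPM. The summed level of these 3 markers was 29.98 to 33.2 CPM in control and 22.1 to 22.7 CPM in NFL libraries, and its part in the result for Ctsw was not tested.

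Grn, the progranulin gene, had 251, 260.3 and 252 CPM in the control samples and 222, 224 and 219 CPM in the NFL samples (log2 fold change -0.20, SE 0.032, adjusted p = 1.7e-05 by edgeR). Ctsd, the aspartic protease cathepsin D, had 97.8, 101 and 101 CPM against 93.0, 87.7 and 82.4 CPM (log2 fold change -0.19, edgeR adjusted p = 0.0049). Groups were separate for both genes. The call of Ctsd rested on NFL replicate 3, its lowest sample, without which the adjusted p was 0.115. Tpp1, a tripeptidyl peptidase, had 111, 98.8 and 112 CPM against 96.1, 92.0 and 100.3 CPM. Its groups overlapped, because control replicate 2 lay under NFL replicate 3, and its adjusted p of 0.015 from edgeR rose as high as 0.157 with 1 library left out (NFL replicate 2). Calls of Tpp1 were also lost without control replicate 1, control replicate 3 or NFL replicate 1.

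The other cathepsins did not follow. Ctsz, cathepsin Z, was the most abundant gene of the whole list per kb of exon (269.6 CPM per kb with control supernatant). It had 397, 385 and 383 CPM in the control samples and 401, 423 and 417 CPM in the NFL samples. Each NFL sample was above each control sample, but the log2 fold change was 0.09 with an edgeR adjusted p of 0.054. Ctsz passed the threshold in limma-voom (adjusted p = 0.0389), with offsets for GC content and length (0.0433) and without control replicate 1 (0.0475) or NFL replicate 1 (0.0255). Ctsb (-0.03), Ctsc (-0.06) and Ctsl (-0.10) did not pass the threshold, and neither did the asparaginyl protease gene Lgmn (-0.09) nor the thioesterase gene Ppt1 (-0.07). Ctss, a cathepsin of antigen-presenting cells, had 0 counts in each of the 6 libraries. The floor of 0.122 to 0.189 CPM covers counting error only, and whether this 0 reflects absent mRNA was not tested.

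The membrane proteins of the lysosome divided into a pair of lower genes and 4 that did not pass the threshold. Over all genes tested, 3.53% were lower past it. Atp13a2 encodes a transporter of polyamines in the lysosomal membrane and lies on chromosome 4 from 140986873 to 141007330. It had 3.62, 3.08 and 3.85 CPM in the control samples, which are 89, 49 and 94 reads, and 1.80, 1.74 and 1.98 CPM in the NFL samples, which are 29, 30 and 35 reads. The NFL samples lay well under every control, and the log2 fold change of -0.94 was the largest fall of the list but also the least precise (SE 0.239, adjusted p = 0.008 by edgeR), since this was the least abundant of the tested genes at 0.586 CPM per kb. Laptm5, a membrane protein of haematopoietic cells that promotes degradation of antigen receptors, had 205, 204 and 193 CPM against 175, 179 and 182 CPM (log2 fold change -0.17, edgeR adjusted p = 6.7e-04).

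Lamp1 and Lamp2 encode the main glycoproteins of the lysosomal membrane. Lamp1 had 524, 526 and 522 CPM with control supernatant and 523, 517 and 506 CPM with NFL supernatant, and Lamp2 had 218, 219 and 221 CPM against 209, 218 and 207 CPM. Both genes had overlapping groups. Their log2 fold changes were -0.02 (SE 0.0281, adjusted p = 0.72 by edgeR) and -0.05 (SE 0.0329, adjusted p = 0.41 by edgeR). Scarb2, the receptor that carries β-glucocerebrosidase (-0.08), and the calcium channel gene Mcoln1 (-0.04) did not pass the threshold either. Cd68, a relative of the LAMP proteins that stood on the macrophage marker list, had 25.6 ± 1.43 CPM and 21.5 ± 2.27 CPM (SD, n = 3 each, edgeR adjusted p = 0.049). The summed level of the 12 macrophage markers was 24.7 to 27.6 CPM in control and 19.1 to 23.4 CPM in NFL libraries and consisted almost wholly of Cd68, while Lyz2, Csf1r, Adgre1, Fcgr1 and Cd163 stayed at or under 0.203 CPM.

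Of the 4 proton pump genes, Atp6v1a and Atp6v1h were higher past the threshold and the others did not pass it. Over all genes tested, 3.47% were higher past it. Atp6v1a, the catalytic subunit of the cytosolic part of the pump, had 194, 184 and 185 CPM in the control samples and 211, 202 and 207 CPM in the NFL samples (log2 fold change 0.14, SE 0.0339, adjusted p = 0.0065 by edgeR). Atp6v1h, a regulatory subunit of the same part, had 114, 110.0 and 118 CPM against 119, 133 and 126 CPM (log2 fold change 0.14, SE 0.0413, adjusted p = 0.02 by edgeR). NFL samples were above the controls for both genes, narrowly so for Atp6v1h, whose adjusted p reached 0.217 without NFL replicate 2 and which lost its call without control replicate 1, control replicate 2 or NFL replicate 3 and with offsets for GC content and length. The accessory subunit gene Atp6ap1, the most abundant of the 4 per kb, had 266, 259 and 269 CPM against 266, 244 and 258 CPM, with overlapping groups. Neither Atp6ap1 (-0.05) nor Atp6v0d1 (-0.01) passed the threshold.

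Neither TFE factor passed the threshold. Tfeb had 13.17, 16.003 and 14.2 CPM with control supernatant and 12.6, 13.9 and 14.6 CPM with NFL supernatant, and its groups overlapped (log2 fold change -0.07, edgeR adjusted p = 0.80). Tfe3 had 35.2, 38.5 and 36.2 CPM against 39.2, 43.0 and 42.8 CPM. Here the NFL samples were above the controls (log2 fold change 0.19, SE 0.0645, adjusted p = 0.058 by edgeR), and Tfe3 passed the threshold without control replicate 2 (0.0229) or NFL replicate 1 (0.0382). It also passed the threshold in limma-voom (adjusted p = 0.0496) and with offsets for GC content and length (adjusted p = 0.0108). In both groups Tfe3 mRNA exceeded Tfeb mRNA, at 3.95 and 2.55 CPM per kb of exon with control supernatant. These are mRNA levels, and the position of either protein in the cell was not measured.

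The genes nearest to the threshold on its inner side were Gusb (adjusted p = 0.033) and Atp6v1h (0.02), and on its outer side Ctsz (0.054) and Tfe3 (0.058).

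**Figure D3:**
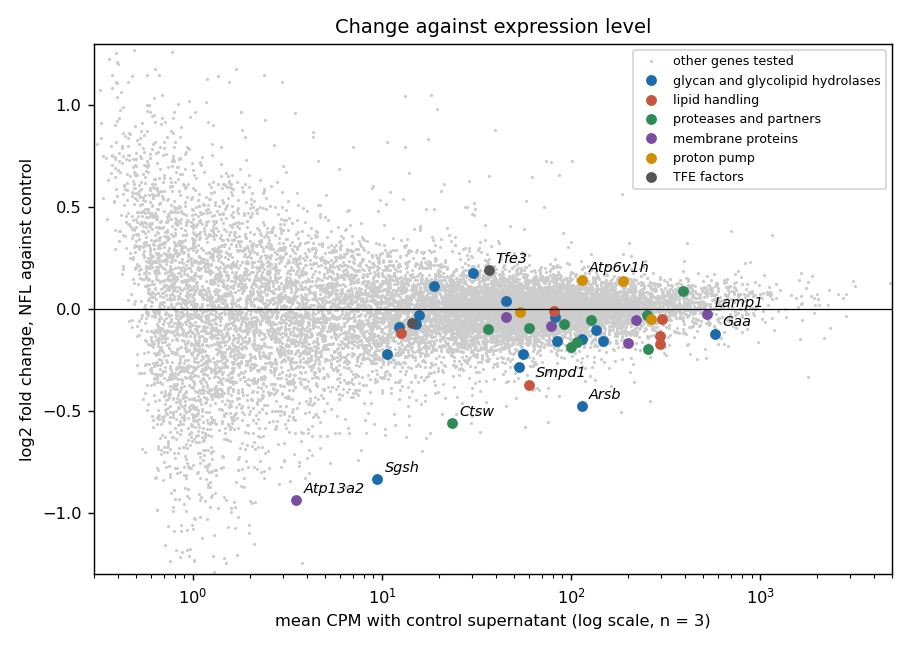
Log2 fold change against the mean control level in CPM (log axis) for the lysosomal genes, coloured by role, and the 14037 other tested genes in grey, of which 27 lie beyond the axes. Sgsh (9.45 CPM) and Atp13a2 (3.51 CPM) have the lowest levels among the lysosomal genes drawn, and the named genes above 0 are Tfe3 and Atp6v1h.

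A further 119 genes of lysosomes and autophagy were grouped by function for comparison, and 106 were tested. Past the threshold were 7 lower and 3 higher genes, 9.43% of those tested, against 7.00% of all genes tested. With offsets for GC content and length this became 5 lower and 6 higher genes. In the group of other hydrolases and lumenal proteins, 5 of 23 tested genes passed it, all of them lower, and the median log2 fold change of the 23 was -0.10. Over all genes tested, 3.53% were lower past the threshold. Man2b2, a further α-mannosidase, had 162, 159.8 and 155 CPM against 137, 125 and 127 CPM (log2 fold change -0.29, edgeR adjusted p = 1.8e-07). Ifi30, a thiol reductase, had a log2 fold change of -0.15 (edgeR adjusted p = 0.0091) and the phospholipase gene Pla2g15 one of -0.31 (edgeR adjusted p = 0.046). The NFL samples of these 3 genes were all under the controls.

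Of 14 other proton pump subunits, 11 had a higher fitted level, as did 6985 of the 14082 genes tested. The threshold was passed by 1 of them (7.14%), near the 7.00% over all genes tested. This was the membrane subunit gene Atp6v0c, with 80.7, 78.9 and 81.9 CPM against 93.3, 93.0 and 86.0 CPM (log2 fold change 0.17, edgeR adjusted p = 0.012). The 20 other membrane proteins and 11 genes of enzyme sorting, among them the mannose 6-phosphate receptor genes Igf2r and M6pr, held no gene past the threshold. In groups this small, such a count is close to the share over all genes tested. Igf2r was measured with a far larger error (1.79 CPM with control supernatant, log2 fold change -0.22, SE 0.307) than M6pr (393 CPM, log2 fold change 0.01, SE 0.0292). Of the 18 tested genes that act on the TFE factors, through mTORC1, calcineurin or GSK3, only Gsk3b (5.56%) passed the threshold and was lower (-0.13, edgeR adjusted p = 0.028). Among 20 autophagy genes, the receptor gene Sqstm1 was higher, with 719, 818 and 738 CPM against 911, 826 and 846 CPM (log2 fold change 0.18, edgeR adjusted p = 1.0e-04), as was Gabarapl1 (0.19, edgeR adjusted p = 0.0072), and Wipi1 was lower (-0.38, edgeR adjusted p = 0.028). The NFL samples of Sqstm1 lay above its controls.

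**Figure D4:**
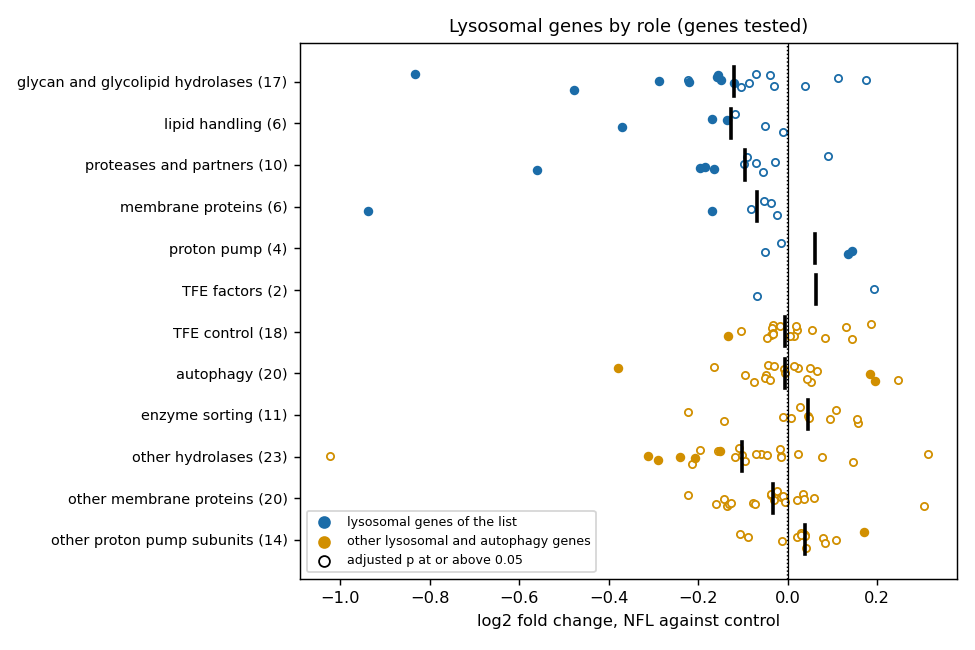
Log2 fold changes of the lysosomal genes of the list (blue) and of other lysosomal and autophagy genes (orange) by role, with the number tested in brackets, filled points for an adjusted p-value under 0.05 and a bar at each median. The medians of the glycan and glycolipid hydrolases and of the other hydrolases and lumenal proteins lie at -0.12 and -0.10, those of the pump groups at 0.06 and 0.04, and the dotted line marks the median of all genes tested.

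Some properties of the lower lysosomal genes were not used to list them, although expression level bears on whether a gene is called. Their transcripts were richer in G and C, with a median of 54.7% for the 17 lower genes, 49.8% for the 28 other lysosomal genes and 49.2% over all genes tested. With offsets that take out the trends of the libraries with GC content and length, 15 genes of the list were lower and 3 higher past the threshold, and the falls of Gusb (adjusted p = 0.0627) and Man2b1 (0.0614) no longer passed it. Per kb of exon, the median control level was 20.1 CPM for the lower genes, 12.4 CPM for the others and 6.11 CPM over all genes tested. The median standard error was 0.0451 for the lower genes and 0.0509 for the others. A smaller error makes a call easier, so this difference in level is partly built into the choice of the lower genes. Of the 28 tested genes whose exons overlap no other annotated gene, 11 were lower past the threshold (39.3%). Of all 45, which include these 28, 37.8% were. The part of exon overlap in the results was not tested.

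Summed over the 45 tested genes, lysosomal mRNA came to 5769, 5733 and 5751 CPM in the control samples and 5446, 5440 and 5450 CPM in the NFL samples. The sums of the NFL samples lay within a few CPM of each other and apart from the controls. The hydrolases of glycans and glycolipids summed to 1519 to 1526 CPM in control and 1368 to 1390 CPM in NFL samples, and the 4 proton pump genes to 609.6 to 627 CPM and 634 to 647 CPM. Sums are ruled by the most abundant genes, and they use the values on which the list was drawn up in part.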

How the data were processed

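The table that the authors deposited holds raw read counts of 55401 genes under versioned Ensembl identifiers, without normalization or pooling, from poly(A)-selected RNA of 6 mouse T-cell samples sequenced on an Illumina instrument. The submitters' processing notes name the build GRCm39, R 4.2.1 and limma 3.54.2. The aligner, counter, annotation release and strandedness are not given in the sources used here, so reads of overlapping genes may have been mixed. Columns were assigned to samples by group letter and number, and 0 columns were left over. Symbols were found for 55141 identifiers. Of these, 54349 had the same version as GENCODE M21 (GRCm38), 792 a later one, and gene coordinates and exon lengths are those of GENCODE M21, which is another build than the notes name. Coordinates of Gla and Grn, whose versions differed, are not given.

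Genes were kept with filterByExpr (minimum count 10, minimum total 15), scaled by TMM (0.994 to 1.007) and tested in R 4.3.3 with edgeR 4.0.16 (glmQLFit, glmQLFTest), without a replicate block. Standard errors are the absolute log2 fold change divided by the square root of F. CPM values use TMM-scaled library sizes, except for the marker medians and sums and the overlapping genes, which use library totals. Levels of different genes were compared as CPM per kb of merged exons. Between libraries of a group, chi-square divided by its degrees of freedom was 1.89 to 3.41, above sampling noise. The fits were tested on simulated data. The 47 genes, the companion lists and the tests were chosen with earlier results of these data known. Values per sample are given for genes past the threshold, for Glb1, Sgsh, Atp13a2, Lamp1, Lamp2, Tfeb and Tfe3, and for the most abundant gene of each role, with Galc added after its values were seen. Some companion genes past the threshold are counted but not reported here by name. Alternatives were DESeq2 1.42.0, voom in limma 3.58.1, other scalings and filters, thinned counts, a replicate block, each library left out and, added after seeing the data, offsets for GC content and transcript length. Figures were drawn with matplotlib 3.10.9.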

Additional observations from a re-analysis of the deposited data

How the results depend on the processing

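Over 15 alternatives, the number of lysosomal genes of the list past the threshold ran from 14 to 21 in place of 19. With each library left out in turn it ran from 14 to 18, over all genes from 508 to 966 in place of 986, and over the companion genes from 5 to 12 in place of 10. NFL replicates 2 and 3 moved the count over all genes most (616 and 508 without them), and NFL replicate 3 that of the companion genes (5 without it). The cause was not tested. Of the 19 called genes, 10 passed the threshold in every alternative, and these were Sgsh, Galns, Arsb, Smpd1, Psap, Npc2, Ctsw, Grn, Laptm5 and Atp6v1a. Atp13a2 had no adjusted p-value in the DESeq2 test, where it was NA, and passed the threshold in the other alternatives. The others, Glb1, Gaa, Gusb, Manba, Man2b1, Ctsd, Tpp1 and Atp6v1h, lost the call at least once. The only direction that turned among the 25 genes with values per sample chosen by rule was that of Tfeb, whose log2 fold change of -0.07 ran from -0.13 to 0.0045 with a library left out, the last without control replicate 2. DESeq2 called 731 genes in all, 17 of the list and 7 companion genes. The share of lower genes among all calls was 50.4%, 61.7% with library size alone and 43.5% with offsets for GC content and length, which also moved that of the companion genes from 70.0% to 45.5%. Samples with the same replicate number had correlations near 0 (0.0074 to 0.014), although each of the 6 correlated best with the sample of its own number in the other group. Whether samples of the same number were paired cannot be told from these values. A replicate block gave 1049 genes in all, 20 of the list, among them Ctsz (adjusted p = 0.0459), and 13 companion genes. Depth limited the least abundant genes, with standard errors of 0.142 for Sgsh and 0.239 for Atp13a2 on the log2 scale.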
